A study of Mus musculus with 16 samples.

Results

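The mRNA of CT26 cells carrying the shSep15 construct was compared directly with that of CT26 cells carrying the shTR1 construct, which lower different selenoproteins. All 8 arrays of these lines were used, 4 labelled shSep15 and 4 labelled shTR1, of 16 arrays in the series, and they were chosen by their labels alone. CT26 is a colon carcinoma line from BALB/c mice, and every line was stably transfected by hygromycin selection, the controls with the empty pU6-m3 vector and the remaining line with both hairpins (shTR1/shSep15). Each array of the Affymetrix mouse 430 2.0 design was hybridised with a different mRNA sample of its line. The study worked with several independent clones, but the sources used here tie no clone or culture to an array, so p-values measure only the spread between these samples, which may be technical.

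Sep15 (gene symbol Selenof) is a selenoprotein of the endoplasmic reticulum that binds the glucosyltransferase of glycoprotein folding. TR1 (gene symbol Txnrd1) is the cytosolic thioredoxin reductase, which uses NADPH to keep thioredoxin reduced. Both carry selenocysteine, which is inserted at a UGA codon by a shared machinery. The targets of the hairpins are shown because they are the only designed difference between both lines. Capitals mark the bases that would pair with bases 2 to 8 of an antisense strand that is the exact reverse complement.

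Sep15 hairpin target: acagaagagttCCATTTAa
TR1 hairpin target: atcgctctgacaagCTTATTAg

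The Sep15 target has 19 bases and the TR1 target 22. Their longest shared run was 3 bases, and the capital letters differ between them.

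The target of the Sep15 hairpin separated both lines in every array, and that of the TR1 hairpin did not. The brighter Selenof probe set had log2 signals of 8.02, 8.06, 8.29 and 8.15 in the 4 shSep15 arrays and of 11.57, 11.73, 11.72 and 12.36 in the arrays labelled shTR1. The groups did not overlap, and the shTR1 arrays lay at or above the control range of 10.78 to 11.57. Selenof fell by 3.71 (standard error 0.19, 95% interval of the difference −4.13 to −3.30), or 13.1-fold, with an adjusted p of 4.21e-07 from limma and an exact two-sided permutation p of 0.0286, the smallest that 4 arrays against 4 can give. A dim second Selenof probe set, at 3.18 to 3.80 and 3.34 to 3.66, showed a difference of 0.05 (95% interval −0.24 to 0.34).

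For Txnrd1 the arrays labelled shTR1 fell into 2 pairs. The brightest probe set was at 7.84 and 7.89 in replicates 1 and 3 and at 10.57 and 9.71 in replicates 2 and 4, against 9.86, 10.62, 9.54 and 9.66 in shSep15 cells and 9.45 to 10.39 in control cells. Replicates 2 and 4 of shTR1 therefore go against their label for this gene, and the difference over all 4 arrays was 0.92 (95% interval −0.14 to 1.97, adjusted p = 0.748 from limma, exact permutation p = 0.314). Without replicates 2 and 4 of shTR1 it was 2.05, with an adjusted p of 0.00993 from limma. The remaining Txnrd1 probe sets were dimmer, with differences of 0.50 and 0.11 that did not pass (adjusted p = 0.733 and 0.998 from limma). Results are therefore given for the arrays labelled shTR1, and those that rest on replicates 2 and 4 are also given without them.

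**Figure D1:**
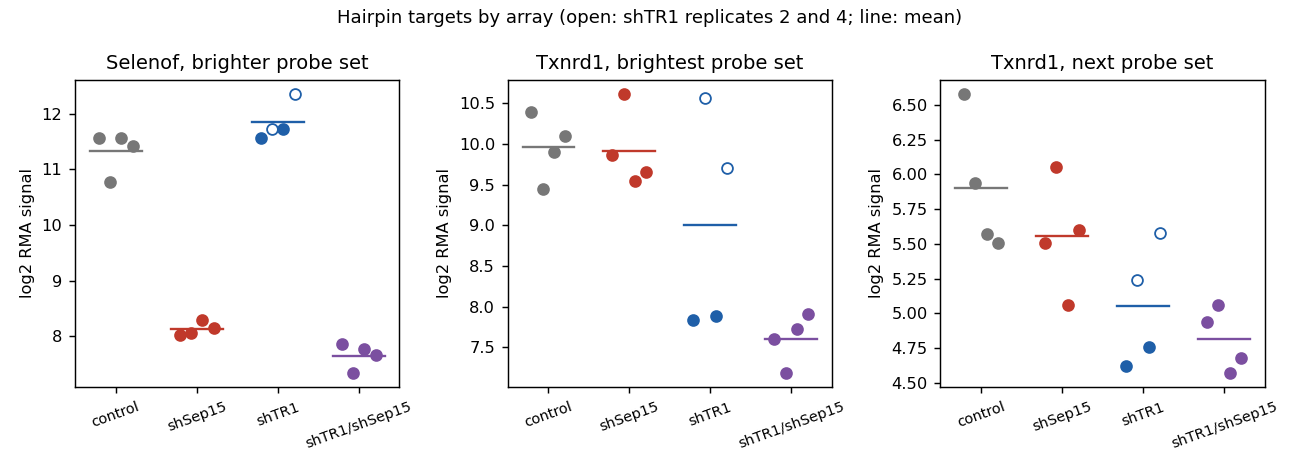
Log2 RMA signal (y axis) of the Selenof probe set and the brighter Txnrd1 probe sets in each of the 16 arrays (points), by line (x axis), with the mean of each line as a bar and replicates 2 and 4 of shTR1 as open points. Selenof lay between 8.02 and 8.29 in shSep15 arrays and between 11.57 and 12.36 in arrays labelled shTR1, while Txnrd1 was at 7.84 and 7.89 in the filled shTR1 points and at 7.18 to 7.91 in the shTR1/shSep15 arrays.

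Array medians lay between 4.45 and 4.578 on the log2 scale, upper quartiles between 6.353 and 6.761 and spike-in means between 8.724 and 10.229. Of the arrays labelled shTR1, replicate 1 had the lowest mean correlation with its own line (0.9707, others 0.9784 to 0.9803). That array remains when replicates 2 and 4 are left out. Replicate 2 of the control stood apart, with a mean correlation of 0.9413 with its own line against 0.9648 to 0.968 for the others. It enters this contrast only through the shared variance. Without it 563 probe sets passed in place of 292.

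Of 45037 probe sets, 292 (0.648%) passed the test between shSep15 and the arrays labelled shTR1 (Benjamini-Hochberg adjusted p under 0.05 from limma), 133 (0.295%) higher and 159 (0.353%) lower in shSep15 cells. An unadjusted p under 0.05 was reached by 3546 probe sets (7.87%). With 1 probe set for each of 18193 genes, 172 passed (0.945%), 73 (0.401%) higher and 99 (0.544%) lower, and 9.25% had an unadjusted p under 0.05. The count depended on single arrays: it was 187, 190, 134 and 129 without shSep15 replicates 1 to 4, and 112 of the 292 probe sets passed without any single array. Without shTR1 replicates 2 and 4, 246 passed, 124 (0.275%) higher and 122 (0.271%) lower, and 152 of them were among the 292. Without shSep15 replicate 1 as well, 160 (0.355%) were higher and 91 (0.202%) lower.

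The lines that the contrast does not use lay mostly with shTR1. For 248 of the 292 probe sets (84.9%) the control mean was nearer the shTR1 mean than the shSep15 mean, against 45.6% of all probe sets. The share was 96.2% of those higher and 75.5% of those lower in shSep15 cells, and 76.5% outside chromosomes 3, X and 18. It ran from 77.4% to 91.5% with single arrays left out and from 61.0% to 89.9% with other settings. The mean of shTR1/shSep15 cells was nearer shTR1 for 262 (89.7%), against 47.7% of all. Among the 292, 199 also differed between shSep15 and control and 5 between shTR1 and control. Both comparisons share arrays with the one described here, so these counts are no independent support. The shares of all probe sets past those tests were 1.97% and 0.18%.

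The 15 genes with the largest called differences in favour of shSep15 included secreted, membrane and metabolic proteins. Each is given at its called probe set with the largest difference, which is not always its brightest, and some genes that did not pass had larger differences. Tmem47, a membrane protein of cell junctions, was at 5.56, 4.40, 6.01 and 6.03 in shSep15 cells and at 2.42, 2.36, 2.29 and 2.48 in arrays labelled shTR1. The shTR1 arrays were at the control level of 2.39 to 2.48, and Tmem47 rose by 3.11 (standard error 0.26, adjusted p = 3.69e-05 from limma). Spint2, an inhibitor of serine proteases at the cell surface, was at 6.26, 6.21, 6.71 and 6.44 against 3.22, 3.38, 3.24 and 3.84. The groups were far apart at this probe set, with a difference of 2.99 (standard error 0.18, adjusted p = 2.30e-06 from limma), while the other and brighter Spint2 probe set rose by 1.08. Both Tmem47 probe sets rose, by 2.62 and 3.11.

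Selenop, the selenoprotein that carries selenium between tissues, was the other selenoprotein that differed. Its signal was 4.52, 4.99, 5.86 and 5.86 in shSep15 cells and 3.38, 3.36, 3.35 and 3.57 in arrays labelled shTR1. All shSep15 arrays were higher, by 1.89 (standard error 0.24, 3.72-fold, adjusted p = 0.00198 from limma), and the call held without shTR1 replicates 2 and 4 (adjusted p = 0.0187). Zdhhc14, a protein palmitoyltransferase, was at 4.69, 4.17, 5.23 and 5.20 against 2.93 to 3.12. It rose by 1.81 (adjusted p = 0.00026 from limma).

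Among these 15 genes, 7 lie on chromosome 3, 3 on X and 5 elsewhere. Those on chromosome 3 were Bank1, a scaffold of B-cell receptor signalling (2.79), Ctso, the cysteine protease cathepsin O (2.70), Myoz2, a protein of the muscle Z-disc (2.56), Fpgt, an enzyme of fucose salvage (2.33), Tyw3, an enzyme of transfer RNA modification (2.26), Cryz, a quinone oxidoreductase (1.77), and Supt20, a subunit of a histone acetyltransferase complex (1.72). Adjusted p-values of these 7 from limma ran from 0.000726 to 0.0371. Myoz2 was at 7.27, 7.44, 8.06 and 8.11 in shSep15 cells and at 4.89, 4.82, 4.83 and 6.10 in arrays labelled shTR1. Cryz was at 11.06, 10.95, 10.98 and 10.90 against 8.34, 9.76, 8.61 and 10.10, with replicates 2 and 4 of shTR1 above the control range of 7.93 to 8.71.

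The remaining genes were Atp8a1, a phospholipid flippase (2.53), Gm7967, a predicted gene (2.11), and on X Heph, a copper-dependent ferroxidase (2.02), and Morc4 (1.73). Heph spread widely in shSep15 cells, at 3.25, 3.92, 5.39 and 5.80 against 2.38 to 2.96. Its call (adjusted p = 0.0359 from limma) was lost without shTR1 replicates 2 and 4 (adjusted p = 0.249). So were those of Bank1 (adjusted p = 0.0505), Morc4 (0.277, with a difference of 1.25) and Supt20 (0.132). For Bank1, Atp8a1 and Morc4, 1 array of a line reached into the range of the other.

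The genes lower in shSep15 cells were led by Afp, the fetal serum protein alpha-fetoprotein. Its log2 signal was 3.67, 2.71, 3.59 and 3.64 in shSep15 cells and 11.14, 6.93, 6.76 and 8.57 in arrays labelled shTR1. The shSep15 arrays were low and close together, while those of shTR1 spread around the control range of 9.31 to 9.70. The difference was −4.95 (standard error 0.67, adjusted p = 0.00298 from limma), or 30.8-fold. With the 8 arrays alone in the model Afp did not pass (adjusted p = 0.0687 from limma). The transcript 2210016F16Rik was at 4.13, 4.26, 3.81 and 3.83 against 8.92, 8.87, 9.20 and 7.38. It fell by 4.59 (standard error 0.33, adjusted p = 8.39e-06).

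Secreted regulators and surface receptors were among these genes. Grem1, a secreted antagonist of bone morphogenetic proteins, was at 5.62, 5.91, 5.29 and 5.19 in shSep15 cells and at 11.03, 10.89, 8.83 and 8.92 in arrays labelled shTR1. It was 4.41 lower in shSep15 cells (adjusted p = 0.00518 from limma), with controls at 6.57 to 9.88. Against control neither shSep15 (−2.46, adjusted p = 0.0773) nor shTR1 (1.95, adjusted p = 0.263) passed. Selp, the adhesion receptor P-selectin, was at 5.65, 4.36, 4.72 and 4.36 against 10.24, 8.81, 8.42 and 8.47, with a difference of −4.21 (adjusted p = 0.000501). All 3 of its probe sets fell. Igfbp4, which binds insulin-like growth factors, was at 5.73, 4.12, 3.84 and 4.49 against 9.28, 9.06, 8.54 and 7.41, a difference of −4.03 (adjusted p = 0.00151). The interferon-induced membrane protein Ifitm1 was at 4.56, 4.90, 5.86 and 5.83 against 11.20, 11.49, 7.66 and 7.46, a difference of −4.17 (adjusted p = 0.0201).

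For Ccr1 and Cd68 the control lay nearer the shSep15 arrays. Ccr1, a receptor of inflammatory chemokines, was at 4.13, 4.17, 4.28 and 3.87 in shSep15 cells, close to the control range of 4.19 to 4.91, and at 8.14, 8.38, 6.43 and 7.30 in arrays labelled shTR1. It fell by 3.45 (standard error 0.34, adjusted p = 0.000211 from limma) and was the 1 gene of the 30 that also passed between shTR1 and control, while 26 passed between shSep15 and control. Over all genes 0.275% passed in the former and 2.72% in the latter. Cd68, a lysosomal glycoprotein known as a macrophage marker, was at 4.38, 5.15, 5.47 and 5.58 against 9.04, 8.66, 5.83 and 9.06, with controls at 4.69 to 6.53. Its call (difference −3.00, adjusted p = 0.0354 from limma) was lost without shTR1 replicates 2 and 4 (adjusted p = 0.333).

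Mtss1, which binds actin and membranes, fell by 2.90 (adjusted p = 0.000238 from limma) and Mapk12, the gamma form of the p38 kinase, by 2.52 (adjusted p = 7.54e-06). Mapk12 was even within both lines, at 3.85 to 4.28 in shSep15 cells and 6.40 to 6.78 in arrays labelled shTR1. Dynap, on chromosome 18, was at 6.92, 4.82, 6.64 and 6.70 against 11.14, 10.05, 9.16 and 10.26. It fell by 3.88 (adjusted p = 0.0204) and was not called without shTR1 replicates 2 and 4 (adjusted p = 0.128). Controls of Dynap were at 6.95 to 10.66. Against them neither shSep15 (−2.35, adjusted p = 0.122 from limma) nor shTR1 (1.53, adjusted p = 0.418) passed.

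Of these 30 genes, 27 had groups of arrays that did not overlap, which in the whole table held for 5.69% of probe sets and 6.71% of genes. The rule chose them by this contrast, so nothing is read from that share. With the 8 arrays alone in the model 18 of the 30 passed, without shTR1 replicates 2 and 4 it was 24, and 18 passed without any single array. The lower genes that did not pass with the 8 arrays were Afp (adjusted p = 0.0687 from limma), Krt18 (0.0805), Ifitm1 (0.145) and Cd68 (0.146). The higher ones were Bank1, Ctso, Atp8a1, Fpgt, Gm7967, Heph, Cryz and Morc4 (adjusted p of 0.0599 to 0.201). For some of these genes other probe sets differed: 2 of 5 passed for Afp, 1 of 2 each for Ctso, Ccr1 and Mapk12, 2 of 7 for Atp8a1, and 4 of 7 for Supt20. For Zdhhc14, Igfbp4 and Mtss1 it was 3 of 6, and for 2210016F16Rik 2 of 3.

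**Figure D2:**
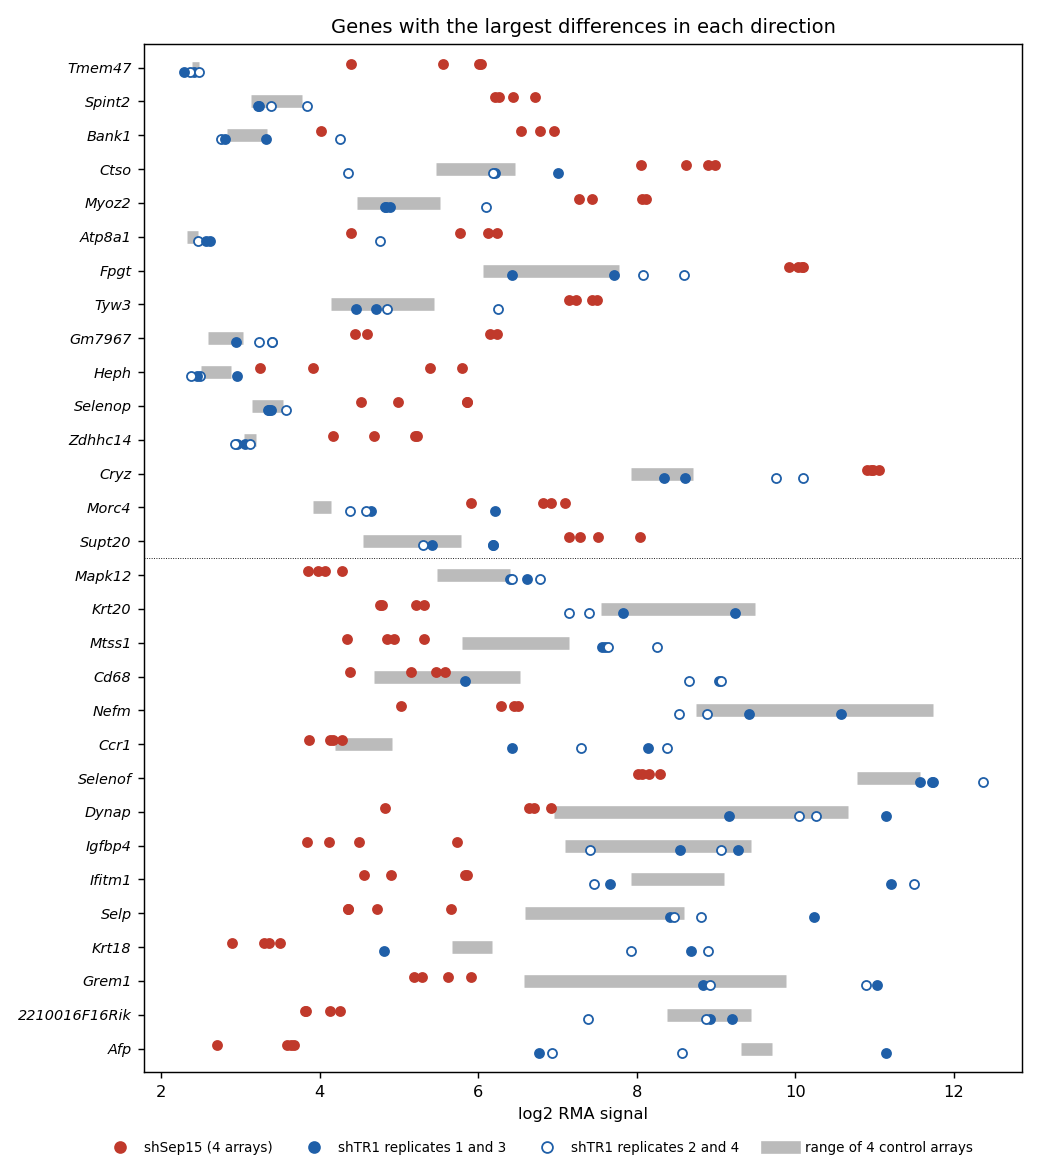
Log2 RMA signal (x axis) of the 15 genes with the largest called differences in each direction, each at the probe set with the largest difference (y axis, the dotted line parts both directions) in each shSep15 array (red) and each array labelled shTR1 (blue, replicates 2 and 4 open), with the range of the 4 control arrays in grey. Red points leave the grey range in most rows, while for Ccr1 the shSep15 arrays at 3.87 to 4.28 lie near the controls and the shTR1 arrays do not.

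Neurofilament and keratin genes, which form the intermediate filaments of neurons and epithelia, included members with far lower signal in shSep15 cells. Of 14 measured, 3 fell and none rose, beside 0.544% of all genes that fell, and the median over the list was −0.05 against 0.023 over all genes. Krt18, a keratin of simple epithelia, was at 3.36, 3.50, 3.30 and 2.89 in shSep15 cells and at 8.68, 8.90, 4.81 and 7.93 in arrays labelled shTR1 (difference −4.32, adjusted p = 0.00468 from limma). Krt20, an intestinal keratin, was at 5.22, 4.79, 4.76 and 5.32 against 9.24, 7.40, 7.83 and 7.15 (difference −2.88, adjusted p = 0.00675). Nefm, the medium neurofilament chain, was at 5.02, 6.50, 6.45 and 6.29 against 10.58, 8.88, 9.41 and 8.53 (difference −3.28, adjusted p = 0.0173). Its partner Nefl, the light chain, was at 3.18 to 3.77 against 4.72 to 9.85 and did not pass (adjusted p = 0.0632), although it passed without shTR1 replicates 2 and 4 (adjusted p = 0.000637, beside 0.407% of all genes then lower). Krt8, which pairs with Krt18 in cells, was at 4.52 to 4.77 in shSep15 cells and 4.50 to 4.79 in arrays labelled shTR1, a difference of −0.03.

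The oncofetal, Wnt, insulin-like growth factor and matrix lists held 1 or 2 called members each, all lower in shSep15 cells, beside 0.544% of all genes called lower. In the oncofetal and pluripotency list, 2 of 20 fell: Afp and Sox2, a pluripotency factor at 7.06, 5.08, 6.36 and 6.47 against 8.72, 7.95, 7.82 and 8.34 (difference −1.96, adjusted p = 0.02 from limma, and 0.0987 without shTR1 replicates 2 and 4). Among 37 Wnt components and feedback targets, Dkk2, a secreted Wnt modulator, fell. It was at 4.04, 4.31, 4.06 and 3.71 against 6.32, 5.14, 7.95 and 6.56 (difference −2.46, adjusted p = 0.026), while the receptors Fzd7 (−0.91, adjusted p = 0.0637) and Fzd6 (1.01, adjusted p = 0.218) did not pass.

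In the insulin-like growth factor list 1 of 15 fell, Igfbp4, and the receptor substrates Irs1 (−1.32) and Irs2 (−0.64) had adjusted p-values of 0.40 and 0.439. In the matrix and mesenchymal list 1 of 30 fell: Zeb1, a repressor of epithelial genes, was at 7.66, 7.11, 7.34 and 7.29 against 8.57, 8.44, 8.64 and 8.54 (difference −1.19, adjusted p = 0.00808 from limma). Thbs2 (−2.02, adjusted p = 0.14) did not pass. List medians were 0.02, −0.03, −0.10 and −0.04 in the order described here, against 0.023 over all genes.

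Lists of colon epithelial and of leukocyte markers had low mean signals in both lines, although the line is labelled a colon carcinoma. Single members were bright. The mean log2 signal of 18 colon epithelial markers was 4.15 to 4.42 in shSep15 cells and 4.40 to 4.92 in arrays labelled shTR1, and the called members, 2 of 18 beside 0.544% of all genes called lower, were Krt18 and Krt20. Cdh1, the epithelial cadherin, was at 2.35 to 2.58 and 2.38 to 2.47, and Vil1, an intestinal brush border protein, at 3.24 to 3.52 and 3.09 to 3.78. Of 18 leukocyte markers 1, Cd68, was called, also lower. The list mean was 4.27 to 4.49 and 4.29 to 4.77, and the defining markers Ptprc (2.48 to 2.94 and 2.56 to 2.90) and Adgre1 (3.27 to 3.67 and 3.08 to 3.63) were dim in every array. None of 10 endothelial or 10 fibroblast markers passed, with 1 and 3 at an unadjusted p under 0.05 from limma, beside 9.25% of all genes.

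The study lists a few genes as altered in both single knockdowns, which it chose on these arrays. None of the 5 measured passed between both lines. Klf2 and Tshz1 had groups that did not overlap, as did 6.71% of all genes. Arhgef5 was at 4.64, 4.92, 4.53 and 4.53 in shSep15 cells and at 4.45, 4.51, 4.75 and 4.36 in arrays labelled shTR1, with controls at 8.72 to 9.60 and shTR1/shSep15 cells at 9.37 to 9.84. The difference between the single knockdowns was 0.13 (95% interval −0.23 to 0.50). Dppa2, a pluripotency-associated gene, was at 3.29 to 4.10 and 2.89 to 4.15, with a difference of 0.23 (95% interval −0.73 to 1.18). In shTR1/shSep15 cells Dppa2 was at 3.20 to 5.54, below the control range of 7.37 to 8.60.

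Lrrn4cl (−0.36, 95% interval −1.51 to 0.79) and Tshz1 (−0.89, 95% interval −1.57 to −0.21, adjusted p = 0.379 from limma) did not pass either. In shTR1/shSep15 cells Lrrn4cl was at 7.75 to 8.58, within the control range of 7.23 to 10.59. Tshz1 was at 6.57 to 7.60 there, below the control range of 8.89 to 9.87. Klf2, a Kruppel-like transcription factor, was at 4.41, 4.62, 4.60 and 4.55 in shSep15 cells and at 6.78, 5.79, 7.74 and 6.68 in arrays labelled shTR1. Controls were at 8.37 to 10.97 and shTR1/shSep15 cells at 7.02 to 7.37. The groups of the single knockdowns did not overlap and the difference between them was −2.20 (standard error 0.48), with an adjusted p of 0.0541 from limma. With the 8 arrays alone it was 0.0452.

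Called genes were unevenly spread over the chromosomes. On chromosome 3, 44 of 913 genes (4.82%) were higher and 5 lower, on X 25 of 617 (4.05%) were lower and 5 higher, and on chromosome 18 13 of 459 (2.83%) were lower and none higher. Over all chromosomes 0.401% were higher and 0.544% lower. These chromosomes held 92 of the 172 called genes. That they stand out was known from earlier results of these arrays. The stretches below begin and end at called genes and were set after the values were seen, so no test is given.

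**Figure D3:**
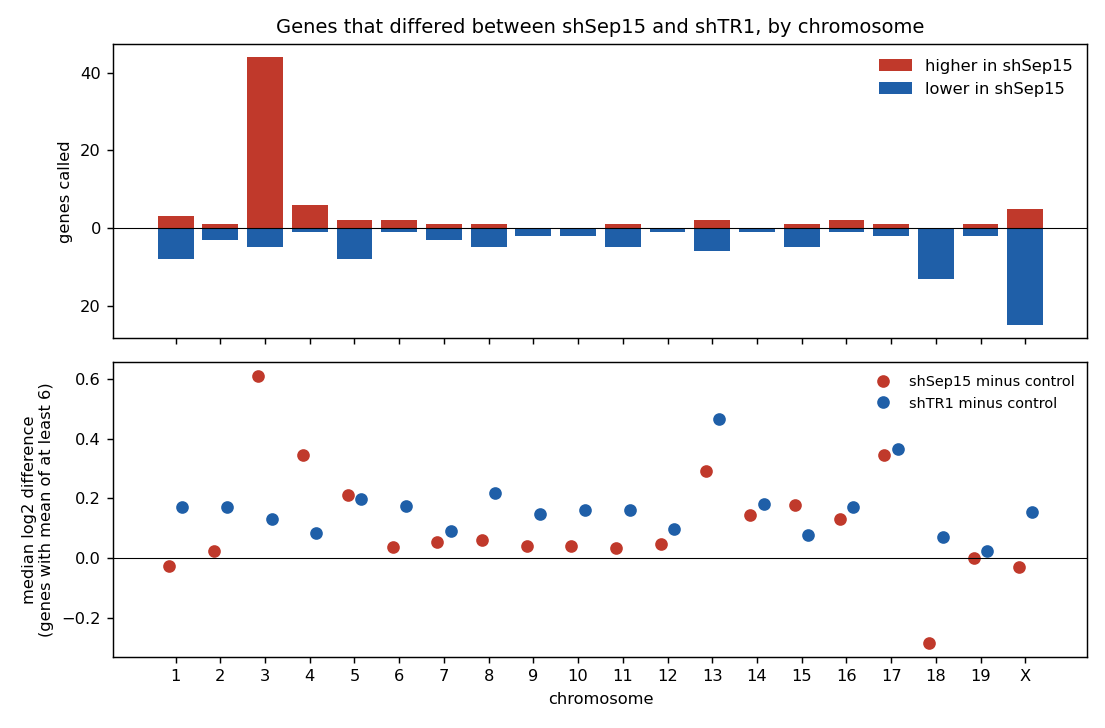
Number of genes called higher (red, up) or lower (blue, down) in shSep15 cells by chromosome (top), and the median log2 difference from control of genes with a mean signal of at least 6 (bottom) for shSep15 (red) and for the arrays labelled shTR1 (blue). Chromosome 3 has 44 genes called higher and the highest shSep15 median, 0.61, while the lowest, −0.284, is that of chromosome 18.

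On chromosome 3 the stretch was set from the first to the last called gene, Kcnmb2 to Lrriq3, so by construction it held all 49 called genes. Among its 384 genes with a mean signal of at least 6, 346 had a higher mean in shSep15 cells and the median difference was 0.49, against −0.045 for 7215 such genes outside chromosomes 3, X and 18. These other chromosomes were not alike. On chromosome 4, 415 of 491 such genes (84.5%) had a higher mean in shSep15 cells, with a median of 0.245, and on chromosome 1 24.3% had, against 22.7% on chromosome 18. The mean over these 384 genes was 8.87, 8.71, 8.96 and 8.98 in shSep15 cells and 8.20, 8.41, 8.30 and 8.51 in arrays labelled shTR1. Controls were at 8.09 to 8.34 and shTR1/shSep15 cells at 7.95 to 8.29, so the shSep15 arrays stood above those of every other line. Selenof itself lies in this stretch, and was 1 of 5 called genes there that fell, with Sox2, Dkk2, Ndst4 and 4933431E20Rik.

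The genes of this stretch did not rise evenly. Sec22b, a fusion protein of vesicles between endoplasmic reticulum and Golgi, was at 11.03, 11.00, 11.08 and 10.98 in shSep15 cells and at 9.82, 9.68, 9.76 and 9.93 in arrays labelled shTR1 (difference 1.23, adjusted p = 9.94e-05 from limma). Larp7, a partner of the 7SK RNA, was at 9.77 to 10.37 against 8.26 to 9.06 (difference 1.38, adjusted p = 0.0105). Rabggtb, a subunit of the enzyme that prenylates Rab proteins, was at 12.07, 12.12, 12.14 and 12.10 against 9.40, 11.20, 9.91 and 11.18 (difference 1.68, adjusted p = 0.0304). As with Cryz, replicates 2 and 4 of shTR1 were higher than replicates 1 and 3, and above the control range of 9.63 to 10.46. These 3 genes, like those named on X and chromosome 18, were chosen after their values were seen.

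On X the stretch from Tmlhe to Mcts1 showed the opposite direction. Of its 53 genes with a mean of at least 6, 52 had a lower mean in shSep15 cells, and their median was −0.86. The mean over them was 7.76, 7.54, 7.90 and 7.92 against 8.61, 8.77, 8.71 and 8.58, with controls at 8.28 to 8.74 and shTR1/shSep15 cells at 8.44 to 8.75. The 166 such genes on the rest of X had a median of −0.01. All 24 called genes of the stretch fell, among them Ube2a, a ubiquitin-conjugating enzyme (−1.15, adjusted p = 9.09e-05 from limma), Lamp2, a lysosomal membrane protein (−1.35, adjusted p = 0.00492), Slc25a5, an ADP/ATP carrier of mitochondria (−1.12, adjusted p = 0.00492), and Atp6ap2, an accessory subunit of the vacuolar proton pump (−1.63, adjusted p = 0.00994).

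Lamp2 was at 9.27, 9.45, 10.04 and 9.98 in shSep15 cells and at 10.79, 11.15, 10.89 and 11.28 in arrays labelled shTR1. Of these 4 genes, Ube2a and Slc25a5 passed without shTR1 replicates 2 and 4 (adjusted p = 0.000463 and 0.0438), while Lamp2 (0.0663) and Atp6ap2 (0.0952) did not.

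On chromosome 18 the stretch from Zeb1 to Aldh7a1 held 12 of 13 called genes. Of 123 genes with a mean of at least 6, 107 had a lower and 16 a higher mean in shSep15 cells (median −0.51). Near the start of the stretch the directions were mixed. Kif5b (0.16), Wac (0.39), Rock1 (0.26) and Mib1 (0.48) had higher means there, and Ccny (−0.27) and Npc1 (−0.38) lower ones. The mean over all 123 genes was 7.98, 7.81, 7.99 and 8.04 against 8.29, 8.41, 8.66 and 8.48. Controls were at 8.34 to 8.69. Etf1, the factor that ends translation at stop codons (−0.83, adjusted p = 0.00492 from limma), and Pura, a nucleic-acid-binding protein (−0.92, adjusted p = 0.00675), fell. Over 30 settings the median of the chromosome 3 stretch ran from 0.46 to 0.62, that of the X stretch from −0.92 to −0.76 and that of the chromosome 18 stretch from −0.59 to −0.44. Many of these settings change only the variance or the test, or leave out arrays of other lines, and so cannot move a median of differences. The ranges are therefore no measure of stability over all 30.

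The counts of called genes, which also depend on the shared variance, moved when arrays of any line were left out. On chromosome 3 they were 20, 27, 13 and 11 without shSep15 replicates 1 to 4, 29 without shTR1 replicate 2, 20 without shTR1 replicate 3, 72 without control replicate 2 and 39 without shTR1 replicates 2 and 4. On X they were 15, 12, 14 and 12 without shSep15 replicates 1 to 4, 15 without shTR1 replicate 2, 16 without shTR1/shSep15 replicate 1 or 3, 38 without control replicate 2, and 12 without shTR1 replicates 2 and 4. On chromosome 18 they were 6 without shSep15 replicate 3 or 4, 8 without shSep15 replicate 2, shTR1 replicate 3 or 4, or shTR1/shSep15 replicate 1 or 3, and 24 without control replicate 2.

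**Figure D4:**
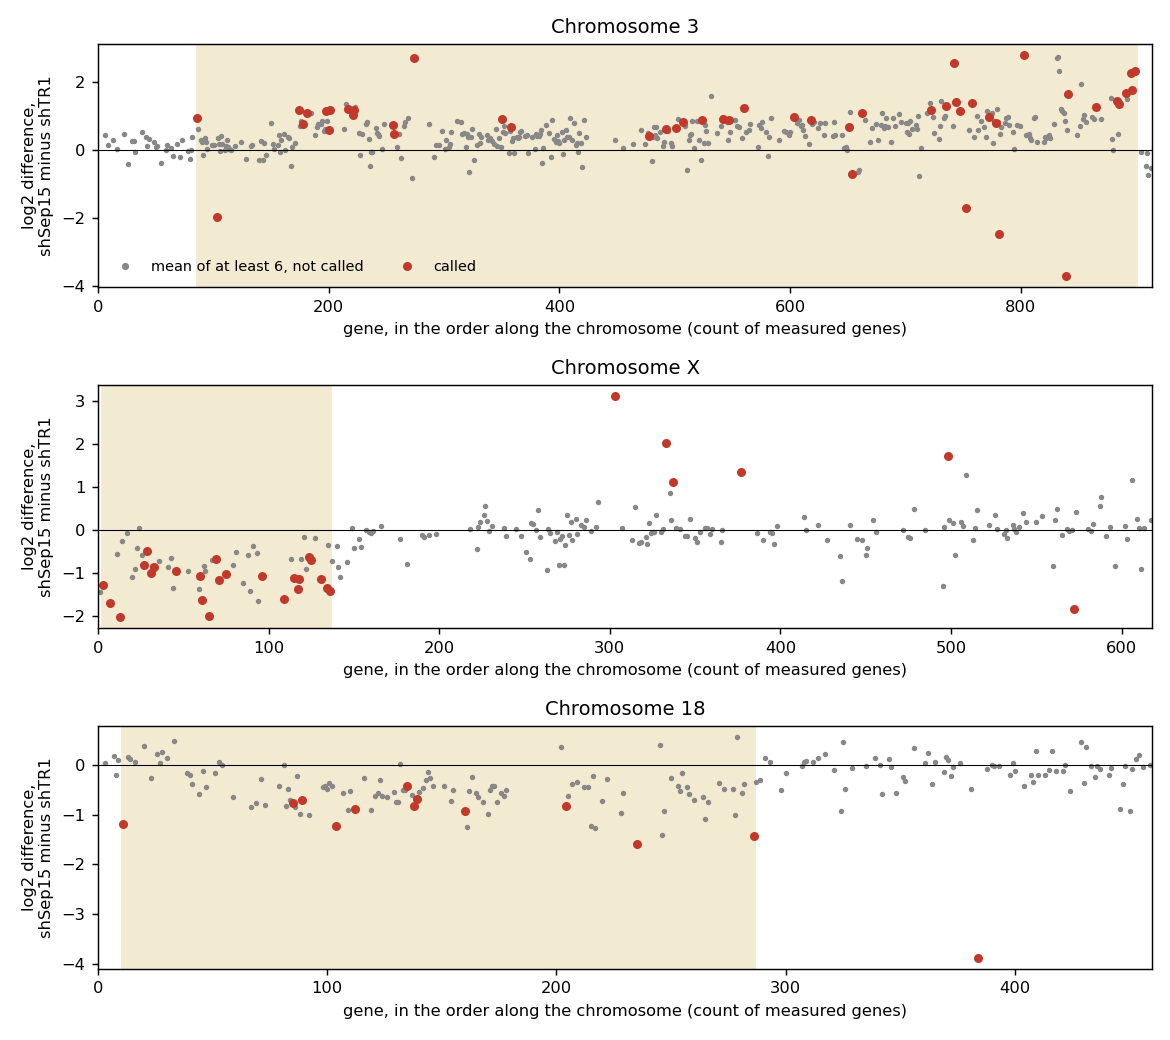
Log2 difference, shSep15 minus shTR1 (y axis), of genes in their order along chromosomes 3, X and 18 (x axis), for called genes (red) and for other genes with a mean signal of at least 6 (grey), with the stretches described in the text shaded. Grey points lie mostly above 0 in the shaded part of chromosome 3 (median 0.49) and mostly below 0 in those of X (−0.86) and chromosome 18 (−0.51).

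Most listed interferon-regulated genes had higher means in shSep15 cells, but the arrays overlapped and no listed member passed. The interferon-induced Ifitm1, which is not on these lists, went the other way and was called. Type I and type II interferons act through Stat proteins and interferon regulatory factors on genes with short response elements, and the guanylate-binding and immunity-related GTPases are among the strongest targets of interferon-gamma. Of 42 measured interferon-stimulated genes 39 had a higher mean in shSep15 cells, as did 55.6% of all genes, and the median difference was 0.87 against 0.023. None passed the test, and 7 had an unadjusted p under 0.05, all higher, beside 4.20% of all genes in that direction. Of 11 GTPase genes 10 had a higher mean, with a median of 1.68, and again none passed, with 5 at an unadjusted p under 0.05.

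The response elements are shown in the promoters of the 3 GTPase genes with the largest differences, Gbp7 (2.77), Gbp2b (2.74) and Gbp3 (2.70). The sequences are those of RefSeq for GRCm38.p6, from 250 bases before to 50 after the start of the gene. The array files name no build and these coordinates belong to the sequences alone. All 3 lie on the plus strand, and capitals mark matches to GAAANNGAAA on either strand (TTTCNNTTTC on the strand shown), the core of the interferon-stimulated response element. In Gbp3 the capitals hold 2 overlapping matches, and a second start site of Gbp3 in the same source had no match.

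Gbp7, chr3:142530086-142530385: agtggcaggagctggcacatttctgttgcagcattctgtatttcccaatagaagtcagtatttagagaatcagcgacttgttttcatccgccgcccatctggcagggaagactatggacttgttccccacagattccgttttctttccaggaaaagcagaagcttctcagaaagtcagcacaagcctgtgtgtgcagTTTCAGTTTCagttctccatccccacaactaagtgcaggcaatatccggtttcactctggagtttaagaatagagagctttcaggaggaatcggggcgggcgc
Gbp2b, chr3:142594597-142594896: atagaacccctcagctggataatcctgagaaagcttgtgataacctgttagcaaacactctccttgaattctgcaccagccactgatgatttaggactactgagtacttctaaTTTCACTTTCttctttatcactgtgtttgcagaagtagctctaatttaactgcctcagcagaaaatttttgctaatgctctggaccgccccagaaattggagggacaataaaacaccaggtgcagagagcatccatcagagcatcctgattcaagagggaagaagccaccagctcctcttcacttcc
Gbp3, chr3:142559794-142560093: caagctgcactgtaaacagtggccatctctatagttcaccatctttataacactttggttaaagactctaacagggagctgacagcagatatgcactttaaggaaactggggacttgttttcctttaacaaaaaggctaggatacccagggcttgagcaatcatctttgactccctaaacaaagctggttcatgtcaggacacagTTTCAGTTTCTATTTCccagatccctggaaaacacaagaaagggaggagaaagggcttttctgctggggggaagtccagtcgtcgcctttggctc

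The match began 53 bases before the start site in Gbp7, 137 in Gbp2b and 45 in Gbp3. Of all 32851 promoters listed there, 3.44% held the motif, and 3.99% of all 27025 genes listed had a promoter with it. The motif was found for 7 of 8 measured GTPase genes listed there, for 12 of 31 interferon-stimulated genes (38.7%) and for 6 of 129 called genes (4.65%).

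The GTPase values show which arrays set the difference. Gbp7 was at 6.29, 9.90, 9.75 and 9.86 in shSep15 cells and at 3.88, 6.05, 4.38 and 10.39 in arrays labelled shTR1. Replicate 1 of shSep15 was the lowest of its line and replicate 4 of shTR1 the highest of all 8 arrays, and the difference of 2.77 had an adjusted p of 0.55 from limma. Gbp2b was at 7.31, 11.27, 9.47 and 9.52 against 4.66, 5.74, 5.18 and 11.02 (adjusted p = 0.58), and Gbp3 at 7.14, 10.97, 10.74 and 11.00 against 4.44, 7.47, 6.10 and 11.04 (adjusted p = 0.77). These genes are close copies of each other, so their probe sets may share transcripts. Of the 11 GTPase genes 4 lie on chromosome 3, all within the stretch described above.

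Over all 11 GTPase genes the mean signal was 5.96, 8.93, 8.16 and 8.34 in shSep15 cells, 4.54, 6.03, 4.96 and 8.91 in arrays labelled shTR1, 4.39 to 6.22 in control cells and 4.13 to 4.50 in shTR1/shSep15 cells. Replicate 1 of shSep15 was the lowest of its line in 11 of 11 of these genes. Replicates 2 and 4 of shTR1, those with Txnrd1 at the control level, were both above replicates 1 and 3 in 9 of 11. The same counts over all genes are not given, so nothing about the list is read from them.

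The interferon-stimulated genes showed the same arrays high and low. Their mean was 6.52, 8.80, 8.32 and 8.43 in shSep15 cells and 6.17, 7.59, 6.09 and 8.81 in arrays labelled shTR1. Replicates 2 and 4 of shTR1 were both above replicates 1 and 3 in 34 of 42 genes, a count that also has no share over all genes beside it. Usp18, which removes the ubiquitin-like protein Isg15 and restrains interferon signalling, was at 7.84, 11.39, 10.90 and 11.26 against 4.68, 10.47, 6.40 and 11.73 (difference 2.03, adjusted p = 0.818 from limma). Phf11d was at 8.68, 10.64, 10.96 and 11.00 against 6.10, 9.54, 6.25 and 11.34 (difference 2.02, adjusted p = 0.605), and Rtp4 at 7.43, 10.75, 10.45 and 10.41 against 5.51, 9.37, 6.17 and 10.31 (difference 1.92, adjusted p = 0.845).

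Without shTR1 replicates 2 and 4, 5 of 42 interferon-stimulated genes and 2 of 11 GTPase genes were higher in shSep15 cells, beside 0.346% of all genes, and the medians were 1.76 and 2.88. Usp18 then differed by 4.81 (adjusted p = 0.0234 from limma), Phf11d by 4.15 (adjusted p = 0.00316) and Irgm2, an immunity-related GTPase, by 3.74 (adjusted p = 0.0214). This leaves 2 arrays labelled shTR1. The arrays left out, chosen for Txnrd1, also had the highest means of their line in both interferon lists. Leaving them out therefore widens the difference by construction, and these calls are no independent support. Whether the Txnrd1 level of the arrays labelled shTR1 bears on their interferon genes was not tested.

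**Figure D5:**
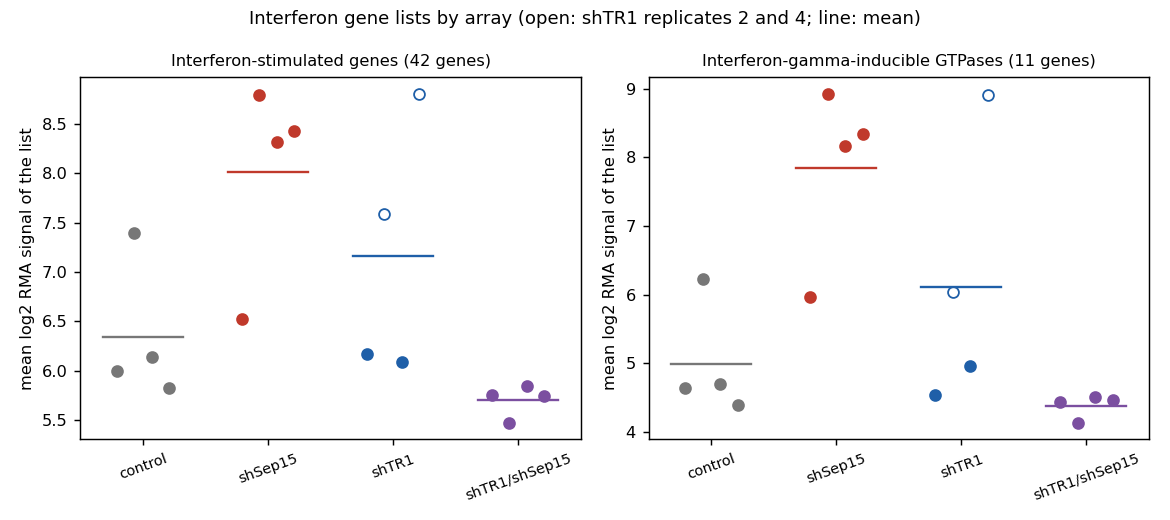
Mean log2 RMA signal (y axis) of 42 interferon-stimulated genes and 11 interferon-gamma-inducible GTPase genes in each array (points), by line (x axis), with the mean of each line as a bar and replicates 2 and 4 of shTR1 as open points. For the GTPase genes shSep15 arrays ran from 5.96 to 8.93 and arrays labelled shTR1 from 4.54 to 8.91.

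Of the lists of antigen presentation, interferon signalling and chemokines, the chemokine list held a called gene. Of 15 class I antigen presentation genes none passed, and the median was 0.10 (0.37 without shTR1 replicates 2 and 4). An unadjusted p under 0.05 from limma was reached by 1 of them, beside 9.25% of all genes. Psmb8, an immunoproteasome subunit, had a difference of −1.48 (adjusted p = 0.198 from limma) against 0.56 for its neighbour Psmb9 (adjusted p = 0.772). Of 29 interferons, receptors and signalling genes none passed and 6 had an unadjusted p under 0.05, 4 higher and 2 lower (median 0.02). The list includes the kinase Jak1 (0.66, adjusted p = 0.514) and the DNA sensor adaptor Sting1 (−0.74, adjusted p = 0.401). Among 21 chemokines and receptors 1, Ccr1, was called lower, beside 0.544% of all genes, and Cxcl10 (−1.11) and Ccl5 (0.96), both induced by interferon, had adjusted p-values of 0.987 and 0.968.

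Among redox genes the calls were those of Selenof and Selenop. Of 23 selenoproteins 1 rose (Selenop) and 1 fell (Selenof, the target of the hairpin itself), beside 0.401% and 0.544% of all genes, with a median of 0.03. Selenot, a selenoprotein of the endoplasmic reticulum, was at 11.89, 11.44, 11.51 and 11.59 in shSep15 cells and at 10.18, 11.00, 11.09 and 10.83 in arrays labelled shTR1. The groups did not overlap but the difference of 0.84 did not pass (adjusted p = 0.188 from limma). Gpx4, the glutathione peroxidase of lipids, had a difference of −0.17 (adjusted p = 0.993).

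None of 9 genes of selenocysteine synthesis and insertion passed (median −0.19), and none of 20 thioredoxins, peroxiredoxins and glutaredoxins (median 0.01). An unadjusted p under 0.05 was reached by 1 gene of the former list, lower in shSep15 cells as were 5.04% of all genes. It was reached by 2 of the latter, beside 9.25% of all genes in either direction. Txn1, the substrate of TR1, was at 12.46 to 12.65 against 12.09 to 12.44, a difference of 0.32 (adjusted p = 0.57 from limma). Of 20 Nrf2 targets and glutathione genes 17 had a lower mean in shSep15 cells, with a median of −0.27, and none passed. Of all genes 55.6% had a higher mean there, and 44.8% of those with a mean signal of at least 6. Without shTR1 replicates 2 and 4 the list median was −0.24, with 5 of 20 higher. Mgst1, a membrane-bound glutathione transferase, was at 3.58, 4.25, 6.74 and 6.85 against 3.03, 4.23, 3.16 and 3.13 (difference 1.97, adjusted p = 0.218), and Gclm, a subunit of the first enzyme of glutathione synthesis, at 10.30 to 11.08 against 8.97 to 10.26 (difference 0.93, adjusted p = 0.461). Unadjusted p-values under 0.05 were reached by 2 genes of this list, both higher, as were 4.20% of all genes.

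Endoplasmic reticulum folding genes, the setting in which Sep15 acts, held no called member among 26. The median was 0.06, and −0.04 without shTR1 replicates 2 and 4. An unadjusted p under 0.05 from limma was reached by 2 genes of the list, beside 9.25% of all genes. The largest differences were those of the stress-response genes Trib3 (−1.08, adjusted p = 0.786 from limma), Ddit3 (−0.74, adjusted p = 0.972) and Herpud1 (0.74, adjusted p = 0.759).

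Cell cycle and DNA repair lists held no called gene. An unadjusted p under 0.05 from limma was reached by 9.25% of all genes. A higher mean in shSep15 cells was found for 55.6% of all genes and for 44.8% of those with a mean signal of at least 6. Of 27 DNA replication genes 22 had a lower mean in shSep15 cells (median −0.20) and none passed, with 1 at an unadjusted p under 0.05. Without shTR1 replicates 2 and 4 the median was −0.02, with 12 of 27 higher. The list mean was 8.51, 7.88, 8.45 and 8.59 in shSep15 cells and 7.84, 9.07, 8.92 and 8.25 in arrays labelled shTR1. Of 27 G2 and mitosis genes 17 had a lower mean (median −0.09), none passed and 2 had an unadjusted p under 0.05. Without shTR1 replicates 2 and 4 the median was 0.01. Of 36 DNA repair genes 25 had a lower mean (median −0.15), none passed and 3 had an unadjusted p under 0.05, and without the same arrays the median was −0.07. Chek2, a checkpoint kinase, had a difference of −1.51 (adjusted p = 0.209 from limma).

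Caspases and apoptosis regulators held no called member among 28 (median 0.02). An unadjusted p under 0.05 from limma was reached by 8 of the 28, 4 higher and 4 lower, beside 9.25% of all genes. Casp6 had a difference of 1.14 (adjusted p = 0.0538 from limma) and Casp1 of 1.21 (adjusted p = 0.162). Nor was any member called among 18 genes of the Trp53 list (median 0.01), 28 ATP-binding cassette transporters (−0.05), 27 immediate-early and Kruppel-like genes (0.02), 14 EGF family genes (0.02), 18 matrix proteases (0.03), 22 hypoxia and glycolysis genes (0.08) or 16 serine, glycine and one-carbon enzymes (0.00). In limma these 7 lists held 1, 4, 3, 2, 2, 1 and 2 genes with an unadjusted p under 0.05, in that order, beside 9.25% of all genes. Differences over 1 among them that did not pass included those of Ndrg1, a hypoxia-regulated gene (−1.59, adjusted p = 0.607), Abcc4, an exporter of organic anions (−1.30, adjusted p = 0.24), and Ccn1, a matricellular protein (1.92, adjusted p = 0.26).

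The lists that the study gives for each single knockdown were chosen on these arrays and are no independent evidence of a direction. Over all genes 0.401% were called higher and 0.544% lower in shSep15 cells, 55.6% had a higher mean there and 9.25% had an unadjusted p under 0.05 from limma. Of 17 genes listed as highest in shSep15 cells 17 had a higher mean and 4 rose (Tmem47, Bank1, Fpgt and Spint2), and of 16 listed as lowest 14 had a lower mean and 6 fell (Afp, Igfbp4, Nefm, Ifitm1, Krt20 and Krt18). Of 18 listed as highest in shTR1 cells 18 had a lower mean in shSep15 cells and 4 fell: Ccr1, Cd68, Ngef and Selp. Of 17 listed as lowest in shTR1 cells 10 had a lower mean in shSep15 cells (median −0.21) and none passed, with 7 at an unadjusted p under 0.05.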

How the data were processed

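The authors hybridised 16 Affymetrix mouse 430 2.0 arrays, 4 per line, and processed them by Robust Multi-Array Analysis, with no version given. They deposited log2 signals per probe set, which were used as they are. An array has no read depth, and precision rests on 4 arrays per line. Of 45101 probe sets 64 manufacturer controls were left out, and 45037 were tested. The platform annotation gave 1 symbol for 34945, several for 932 and none for 9160. In gene counts, lists and chromosomes a gene was represented by its brightest single-symbol probe set, and the 15 largest called differences in each direction were taken at the called probe set with the largest difference.

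All 16 arrays were fitted with limma 3.58.1 (R 4.3.3) with a mean per line, the contrast was shSep15 minus shTR1, and the call was a Benjamini-Hochberg adjusted p under 0.05. The model was tested on simulated data. Named genes were both targets, those 30 genes, called or leading list members, and genes the study lists for both knockdowns. The members, lists, stretches and alternatives were chosen with earlier results of these data known. Replicate numbers did not pair the arrays. Chromosomes and gene order came from RefSeq (GRCm38.p6). Promoters were listed for 31 of 42 interferon-stimulated and 8 of 11 GTPase genes. Figures used Matplotlib 3.10.9 (Python 3.11.15).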

Additional observations from a re-analysis of the deposited data

Results flagged for a closer look

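Among 148 groups of 4 arrays (named probe sets and list means in shSep15 and in the arrays labelled shTR1), 19 (12.8%) held 1 array far from the other 3, and chance alone flags about 1 in 20 such groups. In shSep15 cells Bank1 was at 4.02 in replicate 1 (others 6.54 to 6.95) and Nefm at 5.02 in replicate 1 (others 6.29 to 6.50). Afp was at 2.71 in replicate 2 (others 3.59 to 3.67), and so was Dynap at 4.82 (others 6.64 to 6.92).

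In the arrays labelled shTR1, replicate 4 was highest for Myoz2 (6.10, others 4.82 to 4.89), Atp8a1 (4.76, others 2.47 to 2.62) and Selenop (3.57, others 3.35 to 3.38). Replicate 3 was highest for Morc4 (6.21, others 4.38 to 4.65) and lowest for Cd68 (5.83, others 8.66 to 9.06). Replicate 2 was highest for Mtss1 (8.25, others 7.56 to 7.64) and replicate 1 for Lrrn4cl (5.85, others 4.76 to 4.91).

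List means stood apart in 8 cases. In shSep15 cells these were the immediate-early genes (8.47 in replicate 2, others 8.08 to 8.12), the oncofetal genes (4.39 in replicate 4, others 4.47 to 4.48), the neurofilaments and keratins (4.82 in replicate 2, others 4.70 to 4.72), the genes the study lists as highest in shSep15 (6.30 in replicate 1, others 8.08 to 8.24) and those it lists as highest in shTR1 (5.67 in replicate 2, others 6.41 to 6.54). In the arrays labelled shTR1 these were the endoplasmic reticulum folding genes (9.25 in replicate 2, others 9.38 to 9.39), the EGF family (6.16 in replicate 1, others 5.96 to 5.99) and the neurofilaments and keratins (6.37 in replicate 1, others 5.57 to 5.66).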

How the results depend on the processing

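The 292 probe sets called (133 higher and 159 lower in shSep15 cells) became 164 (62 and 102) with the 8 arrays alone, 139 (61 and 78) with the methods' ANOVA after adjustment and 3424 (1717 and 1707) without it, 933 (454 and 479) with array weights, 450 (224 higher) with the spike-in signal as a covariate, 190 (62 higher) among bright probe sets and 179 (71 higher) with a 2-fold minimum. Without shTR1 replicates 2 and 4 and shSep15 replicate 1, 91 were lower. That set leaves out an array for its interferon genes, so it is not used for those lists. With single arrays left out the count ran from 129 to 563, with 49 to 241 higher and 80 to 322 lower. The replicate number as a block gave 184 (82 and 102), 172 of them shared. Correlations of same-numbered arrays were −0.251 to −0.054 in 4 pairs of deviations, and 0 of 8 arrays lay closest to its own number, so the numbers were not used as pairs.

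With single arrays left out the Txnrd1 difference ran from 0.53 to 1.44 and that of Selenof from −3.80 to −3.54. Selenof kept its call in every alternative that tested it, and the median of its 2 probe sets was −1.83. Txnrd1 stayed below the threshold in all but 2 alternatives: 2.05 (adjusted p = 0.00993 from limma) without shTR1 replicates 2 and 4, and 2.07 (adjusted p = 0.0174) without shSep15 replicate 1 as well. The cause of these changes beyond fewer arrays or probe sets was not tested. None of the 34 other named genes changed sign. No endothelial marker was among the bright probe sets, so that median has no value there. Dim probe sets, such as the second of Selenof, limit what can be measured.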
